A study of Danio rerio with 12 samples.

Results

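The genes described here are the zinc finger genes on the long arm of zebrafish chromosome 4 that were detected in the eye. They were selected on 3 properties in the deposited gene table: a position on chromosome 4 with a start at or above 27000000 (GRCz11), a description containing "zinc finger", and at least 60 counts summed over all 12 samples. This left 102 members of the 37055 genes in the table. The window held 259 zinc finger genes in all, of which 157 stayed under the count minimum and 7 of those had no count. The minimum was chosen by measured counts, so the level of the members is a description and carries no test.

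Eyes of 6 homozygous lrpap1 mutant fish were compared with eyes of 6 wild-type fish, all at 3 months. The mutants came from 1 stable line with a CRISPR/Cas9 frameshift in lrpap1, which encodes a chaperone of the low-density lipoprotein receptor family. Each sample was the pair of eyeballs of 1 fish, sequenced as polyadenylated RNA, and the sources used here give no sex, parents or batch. A count is a number of reads assigned to a gene, CPM is the count scaled to the same TMM-corrected library size in each sample (count per 1000000), and TPM is the length-scaled value deposited by the authors.

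C2H2 zinc finger proteins bind DNA through repeated finger domains that coordinate zinc, and many of them act as transcriptional repressors. In zebrafish the long arm of chromosome 4 is rich in repeats and heterochromatin, and it carries large tandem families of zinc finger genes and of NLR-type immune receptor genes. Names such as XlCGF57.1, XlCGF8.2DB and XlCOF6 were carried over from Xenopus laevis gastrula and oocyte clones and give no function for the zebrafish gene. The single members are therefore described by position, name and level.

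Total counts were 7996647 to 9780310 in mutants (median 8815772.5) and 7988538 to 9829112 in wild-type fish (median 9341515.5). The edited gene itself had 144 to 201 counts in mutants (median 172.5) and 214 to 273 in wild-type fish (median 239.5), so the groups did not overlap. Its level was 18.9 ± 2.14 CPM in mutants and 27.1 ± 3.82 CPM in wild-type fish (SD, n = 6 each), a log2 fold change of -0.52 (SE 0.11, adjusted p = 0.0108 by edgeR's quasi-likelihood test). The photoreceptor list, which marks the labelled tissue, summed to 28822 to 43044 CPM in mutants and 30790 to 46394 CPM in wild-type fish. Lens genes summed to 5075 to 6625 CPM in mutants and were at 69.6 CPM in wild-type replicate 3, against at least 6209 CPM in the other wild-type fish. Without that fish 4 members were called, 2 in each direction, as with it.

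As a family the members were expressed at a low level. Single counts did not exceed 188 in any sample, and the mean TPM over the 12 samples lay between 0.163 and 6.21. Their median mean count was 11.1, against 17.3 for the 328 other genes of the window and 61.5 for the 539 zinc finger genes elsewhere, both with the same minimum. The members were 101 protein-coding genes and 1 lncRNA with listed lengths of 858 to 9940 bases, and 75 of them shared a description with another member.

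The family total did not separate the genotypes. Members summed to 204 to 242 CPM in mutants (median 214) and 205 to 247 CPM in wild-type fish (median 219), and the ranges overlapped almost wholly. The corresponding TPM sums were 128 to 161 in mutants and 121 to 163 in wild-type fish. In whole eyes, fewer cells of a type and less RNA per cell cannot be told apart.

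**Figure D1:**
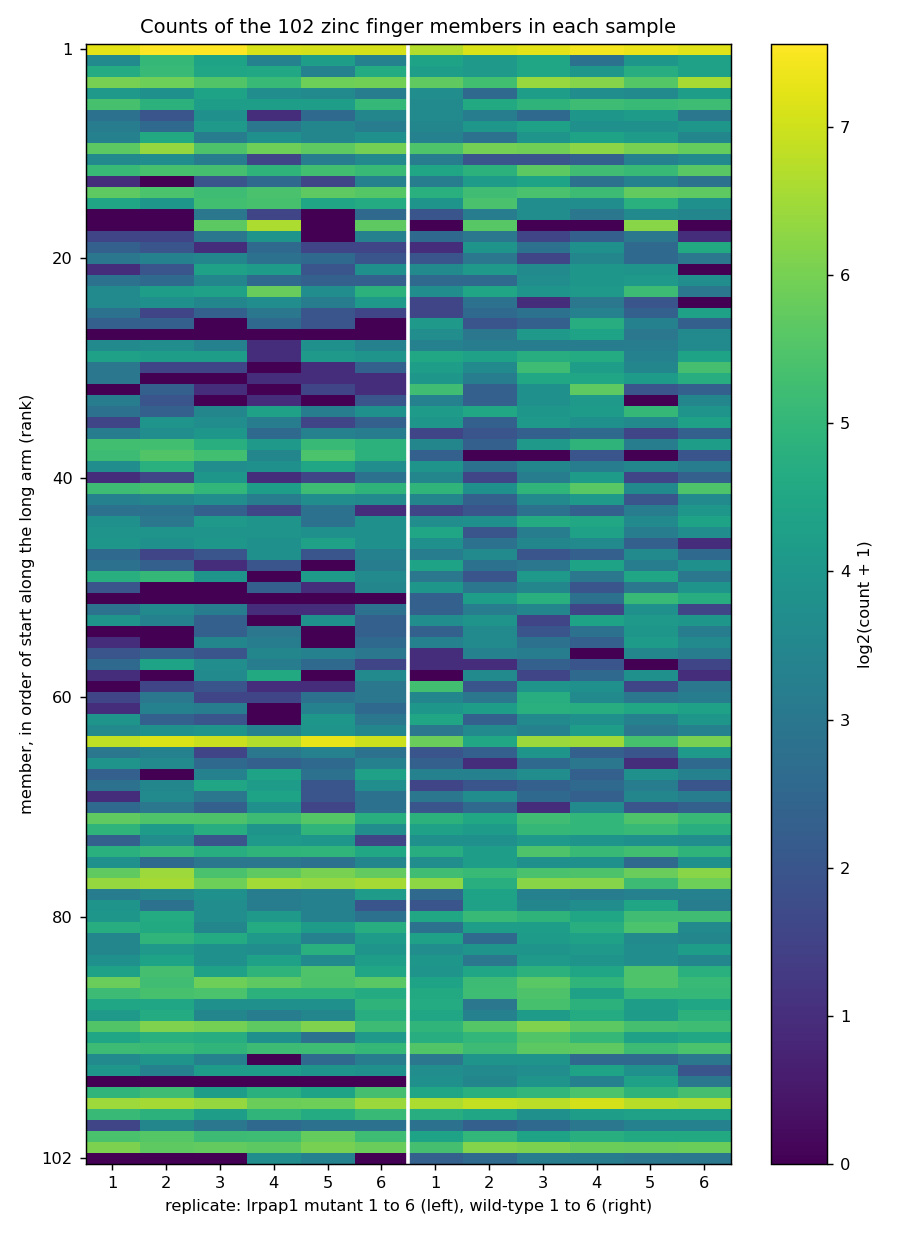
Each row is 1 of the 102 members in order along the arm and each column 1 sample, with lrpap1 mutants on the left and wild-type fish on the right; colour gives log2(count + 1). Dark cells are counts at or near 0, which lie mostly in the mutant columns. In the 72 to 74 Mb stretch 20 of 25 members have more than 3 counts in each sample, but LOC100149352 there is at 0 in all mutants.

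The edgeR filter on low counts kept 57 of the 102 members. A gene was called when its p value, adjusted by the Benjamini-Hochberg method over all 18984 genes tested, was under 0.05 and its absolute log2 fold change over 1. Of the 57, 4 were called (7.02%), against 4.55% of all genes tested. In mutants 2 of the members were higher, against 3.68% of all genes, and 2 were lower, against 0.874%. The median log2 fold change was 0.07 over the 57 members, 31 positive and 26 negative, and -0.02 over all genes. An unadjusted p under 0.05 was reached by 12 members (21.1%), against 27.2% of all genes tested. The median mean count was 11.1 for the 102 members and 106 for all genes with the count minimum. The shares are therefore not set side by side at a like level of counts, and nothing is read from them. Of the 4 called members, LOC100536660 met the minimum of 60 counts through mutants alone and LOC103910886 through wild-type fish alone, and their counts are a description to that extent.

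LOC100536660, named oocyte zinc finger protein XlCOF6-like (chromosome 4, 43907457 to 43931092, minus strand), had the largest change among the 57. Its counts were 10 to 45 in mutants (median 36.5) and 0 to 4 in wild-type fish (median 1.5). All 6 mutants were above all 6 wild-type fish, and 3 of the wild-type fish had no read. The level was 3.58 ± 1.25 CPM in mutants and 0.192 ± 0.224 CPM in wild-type fish (SD, n = 6 each), a log2 fold change of 4.17 (SE 0.59, adjusted p = 0.000712, edgeR). It stayed called with any 1 sample left out, at log2 fold changes of 3.92 to 4.68. Since LOC100536660 became a member through mutant counts alone, these values describe the gene and are no support for a change of the family.

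LOC100151503, gastrula zinc finger protein XlCGF8.2DB (66803428 to 66823762, minus strand), was also higher in mutants and was among the most counted members. It had 102 to 156 counts in mutants (median 124.5) and 22 to 89 in wild-type fish (median 59.5). The groups did not overlap, although the wild-type fish spread widely. Its level was 14.0 ± 1.95 CPM in mutants and 6.56 ± 2.77 CPM in wild-type fish (SD, n = 6 each), a log2 fold change of 1.095 (SE 0.25, adjusted p = 0.0145, edgeR). Without wild-type replicate 2, the fish at 22 counts, the log2 fold change was 0.95, under the minimum of 1, with an adjusted p of 0.0108 (edgeR).

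LOC103910886 (64472152 to 65089840, minus strand), was lower in mutants. It had 0 to 9 counts in mutants (median 6.5) and 15 to 27 in wild-type fish (median 20.5), so each mutant lay below each wild-type fish. The log2 fold change was -1.97 (SE 0.47, adjusted p = 0.0166, edgeR), and it was called with any 1 sample left out. Since LOC103910886 became a member through wild-type counts alone, these values likewise describe the gene only.

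LOC101882475, gastrula zinc finger protein XlCGF8.2DB-like (72947196 to 72960001, minus strand), was the other lower member. Its counts were 6 to 24 in mutants (median 13.5) and 21 to 37 in wild-type fish (median 31), and the groups overlapped. The log2 fold change was -1.13 (SE 0.29, adjusted p = 0.0234, edgeR). The call was lost in 5 of the 12 fits that left out 1 sample: without mutant replicates 1, 3 or 6 or wild-type replicates 2 or 6, where the log2 fold change was -1.13, -1.07, -0.96, -1.06 and -1.06. The next members on the same strand, shown for their position, were LOC101882607, LOC101882667, LOC101882721 and LOC101882787. They had log2 fold changes of 0.07, 0.35, 0.10 and 0.33, and none passed the test.

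A further 2 members passed the adjusted p alone with changes under the fold minimum, and both are named after their values were seen. With them 6 of the 57 members (10.5%) passed the adjusted p, against 11.2% of all genes tested. LOC101884295 had 57 to 93 counts in mutants (median 83) and 99 to 134 in wild-type fish (median 107), without overlap. Its log2 fold change was -0.54 (SE 0.13, adjusted p = 0.0177, edgeR). LOC110437822, zinc finger protein OZF-like, had 35 to 54 counts in mutants (median 38.5) and 20 to 31 in wild-type fish (median 23), a log2 fold change of 0.78 (SE 0.19, adjusted p = 0.0179, edgeR). These members were detected in each fish of both genotypes, and their change was one of degree.

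**Figure D2:**
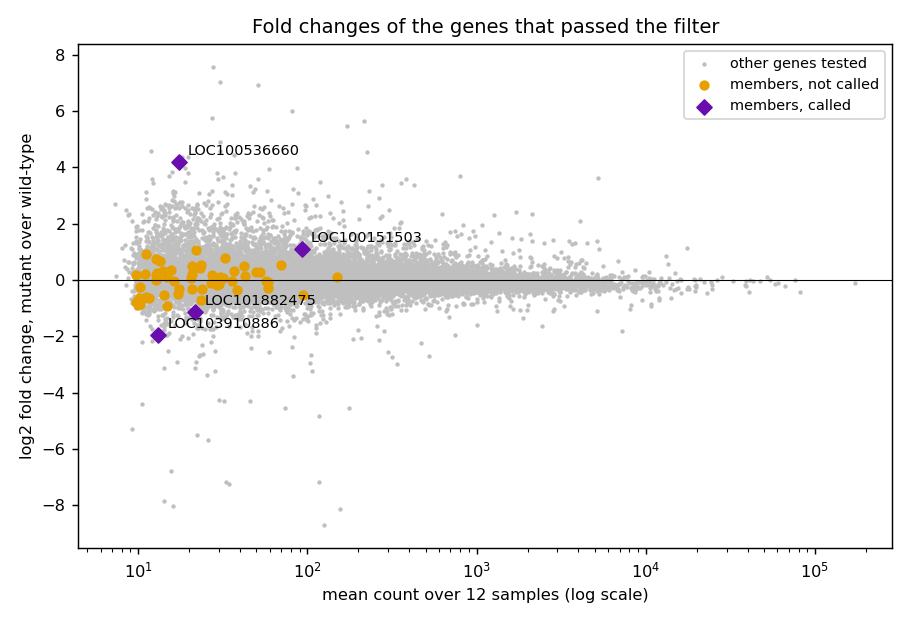
Each point is a gene that passed the filter, by its mean count over the 12 samples (log axis) and its log2 fold change of lrpap1 mutants over wild-type fish; orange points are members not called and purple diamonds the 4 called members. The called members run from LOC100536660 at 4.17 to LOC103910886 at -1.97, and LOC108183709, at 1.06 and not called, has the largest change among the other members tested.

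The 6 members with the highest mean TPM included none that was called. zbed4, a BED-type zinc finger gene at the start of the window, had 6.63 ± 0.83 TPM in mutants and 5.78 ± 0.96 TPM in wild-type fish (SD, n = 6 each). The log2 fold change of its counts was 0.09. LOC101882063, LOC103910472, LOC100333228 and LOC100537377 averaged 4.65 to 5.96 TPM over the 12 samples and had log2 fold changes of -0.15, -0.06, 0.28 and 0.32. These 5 genes were read in each fish. LOC110439435 was the exception among the 6, with counts of 0 to 99 in mutants and 0 to 73 in wild-type fish.

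LOC110439435 (gastrula zinc finger protein XlCGF8.2DB-like, 30863963 to 30874169, plus strand) was on or off within each genotype. Mutant replicates 3, 4 and 6 had 49, 99 and 50 counts, and mutant replicates 1, 2 and 5 had 0. Wild-type replicates 2 and 5 had 47 and 73 counts, and the other 4 wild-type fish had 0. The pattern did not follow genotype, and the log2 fold change of 0.85 from the unfiltered edgeR fit had an adjusted p of 0.711.

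To separate graded change from presence and absence, each gene was classed from its counts: absent in a sample at 3 counts or fewer, present at 10 or more, and high at 30 or more. Genes with more than 3 counts in each of the 12 samples were called graded, and 46 of the 102 members (45.1%) were. A further 51 members had some sample at 3 or fewer and met no rule for presence and absence, LOC100536660 among them because 1 wild-type fish had 4 counts. Presence and absence meant one genotype absent throughout while the other was present throughout or high in some fish, or absent and high fish within 1 genotype. By these rules 5 members (4.90%) were present in some samples and absent in others, against 2.91% of the 20745 genes with the count minimum. The share was 11.3% among the other genes of the window and 1.30% among the zinc finger genes elsewhere. Median mean counts were 11.1 for members and 106 for the 20745 genes. Shares under fixed cuts on counts are therefore not at a like level, and they are a description without a test. Of the 5 members, 4 were mixed within a genotype and 1 was absent throughout 1 genotype and high in some fish of the other. No member had 10 or more counts in all fish of 1 genotype and 3 or fewer in all of the other.

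The member seen in a single genotype was LOC100150095, oocyte zinc finger protein XlCOF6-like (56292049 to 56691014, minus strand). It had 0 counts in all 6 mutants and 4 to 33 in wild-type fish (median 21.5). A pair of further members, named after their values were seen, was also at 0 in all 6 mutants. LOC100150619, XlCGF8.2DB-like (36506439 to 36522557, minus strand), had 7 to 20 counts in wild-type fish (median 11.5), and LOC100149352, XlCGF49.1-like (73973251 to 73981757, plus strand), had 7 to 19 (median 11.5). The 3 genes lie far apart along the arm and carry 3 different names.

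Members at 0 counts in each mutant and over 3 in each wild-type fish were thus 3 of 102 (2.94%), against 0.0386% of the 20745 genes, which is 8 genes. Of the other 5 genes, LOC108183877 was also in the window, and none was a zinc finger gene elsewhere. Each of the 3 members reached 60 counts through wild-type fish alone, so the rule that chose them admitted them by the genotype in which they were read. The count is therefore a description and not a test of the family.

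These 3 are called the silent members here, which means only that no read was assigned to them in any mutant. Why no read was assigned was not tested. Wild-type levels of the 3 silent members were 2.04 ± 1.21 CPM for LOC100150095, 1.35 ± 0.55 CPM for LOC100150619 and 1.34 ± 0.48 CPM for LOC100149352 (SD, n = 6). A count of 0 allows up to 3 counts, which is 0.387 CPM in the smallest mutant library. By the wild-type mean, they were at least 5.27-fold, 3.50-fold and 3.47-fold lower in mutants. These bounds do not hold for each fish, as LOC100150095 had 4 counts in wild-type replicate 1. The 3 genes were picked for 0 counts in mutants, so the bounds are a description. The edgeR filter removed all 3. They therefore have no p value in the main test. The choice of members admitted them through wild-type counts, so their p values from other fits are not given.

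**Figure D3:**
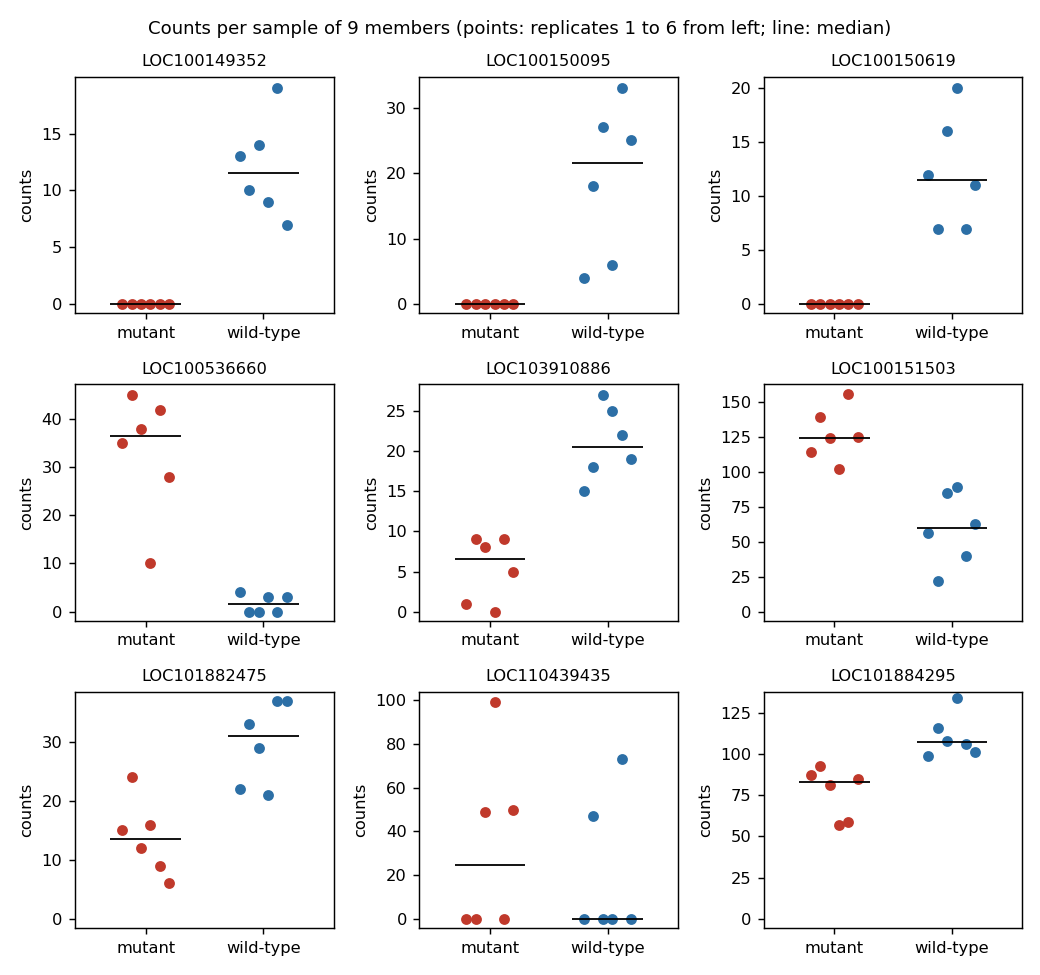
Counts of 9 members in each sample, lrpap1 mutants (red) left of wild-type fish (blue), with a line at the median. LOC100149352, LOC100150095 and LOC100150619 are at 0 in all mutants; LOC110439435 is on and off within both genotypes; LOC101884295 changes by degree.

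Without the filter on low counts, edgeR called 11 of the 102 members, 3 higher and 8 lower in mutants, against 4.47% of the 27721 genes fitted and 5.14% of those with the same count minimum. Of the 8 lower members 7 met the minimum through wild-type fish alone, as the choice of members favours, so nothing is read from this count. Besides the 4 called and the 3 silent members, these were znf1102, LOC100536608 and znf977 among the lower ones and LOC100536609 among the higher. DESeq2 called 16 members, 6 higher and 10 lower, against 6.36% of the 23975 genes to which it gave an adjusted p. The 10 include the 8 lower members of the unfiltered edgeR fit, so nothing is read from the DESeq2 count either. The other 5 members with a DESeq2 call were LOC101884520, LOC108183319, LOC108183436, LOC108183709 and LOC108184001, named after their values were seen. LOC101884520 had 2 to 20 counts in mutants and 0 to 4 in wild-type fish. LOC108183319 had 0 to 8 counts in mutants and 6 to 20 in wild-type fish. LOC108183709 had 16 to 38 counts in mutants and 4 to 29 in wild-type fish, passed the edgeR filter and had an adjusted p of 0.0669 there (edgeR).

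znf1102 and LOC100536608, also named after their values were seen, lie on opposite strands, and their gene bodies overlap between 37505272 and 38411548. znf1102 had 0 to 7 counts in mutants (median 2) and 10 to 39 in wild-type fish (median 18). LOC100536608, gastrula zinc finger protein xLCGF3.1-like, had 0 to 7 counts in mutants (median 1) and 8 to 25 in wild-type fish (median 19). Both were lower in each mutant than in any wild-type fish. The sources used here do not say whether reads were counted by strand, so the reads of such overlapping genes may not be separable.

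LOC100536609, gastrula zinc finger protein XlCGF57.1-like and likewise named after its values were seen, had 5 to 15 counts in mutants (median 8.5) and 2 to 5 in wild-type fish (median 3.5), with an adjusted p of 0.0351 in the unfiltered edgeR fit. Its counts met at 5 in a fish of each genotype, although its CPM values did not overlap. znf977 was mixed within wild-type fish: it had 0 to 4 counts in mutants (median 1), while wild-type replicates 1, 3 and 4 had 37, 13 and 50 and the other wild-type fish had 3 or 4.

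The other members mixed within a genotype were LOC101886363 and LOC108184001. LOC101886363, XlCGF57.1-like, was at 0 in mutant replicate 4 and at 11 to 32 in the other mutants, with 3 to 21 counts in wild-type fish (median 7). LOC108184001 had 0 to 7 counts in mutants (median 1.5), and 38 in wild-type replicate 1 against 2 to 14 in the other wild-type fish. Neither was called by edgeR with or without the filter, while DESeq2 called LOC108184001.

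Counted by CPM alone, the genotypes did not overlap in 12 members. In mutants 5 were higher, against 3.68% of the 20745 genes, and 7 were lower, against 2.18%. Of the 7, 6 met the count minimum through wild-type fish alone, and of the 5, 2 met it through mutants alone, so the counts are a description. The 5 were LOC100536660, LOC100151503, LOC110437822, LOC100536609 and LOC108183436, and the 7 were the 3 silent members, znf1102, LOC100536608, LOC103910886 and LOC101884295. LOC108183436, named after its values were seen, had 8 to 16 counts in mutants (median 11.5) and 0 to 7 in wild-type fish (median 2.5).

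Zero counts were more frequent in mutants. Of the 102 members, 30 had no read in at least 1 sample: 22 in mutants only, 5 in wild-type fish only and 3 in both. Each mutant had 5 to 13 members at 0 (median 9.5), and each wild-type fish had 1 to 3 (median 2), so these groups did not overlap. As a share of the 102 members this was 4.90% to 12.7% in mutants and 0.98% to 2.94% in wild-type fish. Leaving out the 3 silent members the numbers were 2 to 10 in mutants (median 6.5) and 1 to 3 in wild-type fish (median 2), which overlap, or 2.02% to 10.1% in mutants and 1.01% to 3.03% in wild-type fish.

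A sample at 0 was found for 29.4% of members and for 32.3% of the other genes of the window. The direction by genotype was not shared by the other gene sets with the same minimum. Among the zinc finger genes elsewhere, 0% to 0.371% were at 0 in mutants and 0.557% to 1.30% in wild-type fish. These ranges did not overlap either, and their direction was the opposite. Among the other 328 genes of the window, 2.74% to 6.71% were at 0 in mutants and 2.13% to 11.0% in wild-type fish. Over all 20745 genes the shares were 0.607% to 1.07% in mutants and 0.651% to 1.66% in wild-type fish. The minimum was met by wild-type counts alone in 23 members and by mutant counts alone in 6, by each genotype alone in 47 and only by both together in 26. Since it was set on the sum, the shares at 0 depend on it and were not tested.

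**Figure D4:**
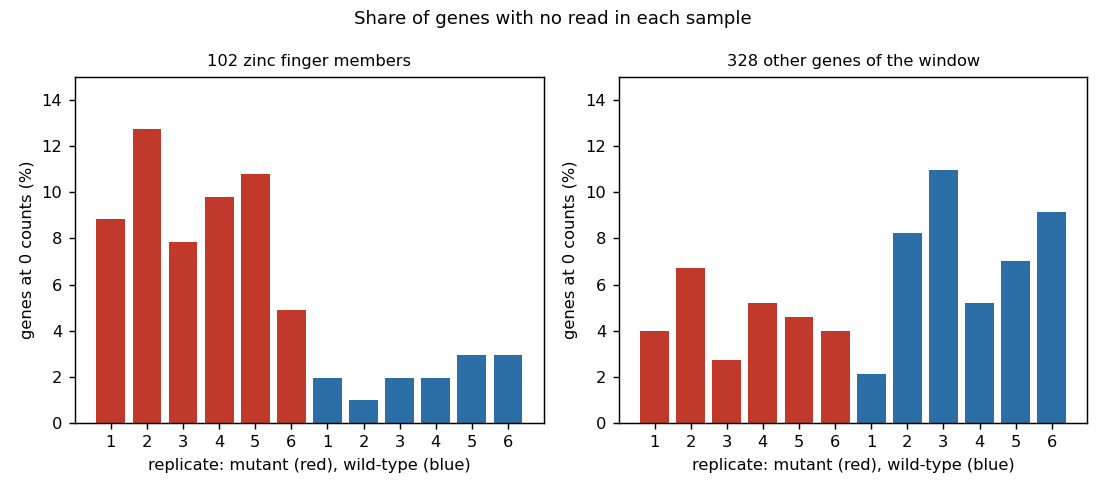
Bars give the share of genes at 0 counts in each sample, lrpap1 mutants (red) left of wild-type fish (blue), for the 102 members and for the other 328 genes of the window. The share of members at 0 was 4.90% to 12.7% in mutants and 0.98% to 2.94% in wild-type fish, while the other genes had 2.74% to 6.71% in mutants and 2.13% to 11.0% in wild-type fish.

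Several members shared 1 pattern among the mutants that genotype does not describe, and they are named after their values were seen. In 6 members, mutant replicates 1, 2 and 5 had 3 counts or fewer while replicates 3, 4 and 6 had more than 3. These were LOC110439435, LOC108183629 and LOC110439424 near the start of the window and LOC101883686, LOC108183925 and LOC100534672 further along. LOC100534672, oocyte zinc finger protein XlCOF6-like, had 1, 0 and 0 counts in mutant replicates 1, 2 and 5 and 11, 23 and 11 in replicates 3, 4 and 6. LOC110439424 had 1, 3 and 3 in the first set of fish and 19, 17 and 13 in the second.

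The same pattern was seen in 5.88% of the members, in 6 of the other genes of the window (1.83%), in none of the zinc finger genes elsewhere and in 22 of all 20745 genes (0.106%). Of those 22 genes, 12 were on chromosome 4. The split of fish was chosen after the values were seen, and genes with few reads meet a cut at 3 counts more easily. Median mean counts were 11.1 for members and 106 for the 20745 genes, so these shares are a description and not a test. Mutant replicate 4 alone lacked 5 other members, with at most 1 count where each other mutant had more than 3. They were znf973, LOC101884367, LOC101886363, LOC101885920 and znf989, the first 2 and last 2 named after their values were seen. Over all genes with the count minimum this fish alone lacked 87, against 15 to 39 for each other mutant. It also had the lowest total count among mutants, 7996647. By the same rule within wild-type fish, replicate 3 lacked 125 at a total count of 9197390, and replicate 2 lacked 83 at 9142860. Wild-type replicate 1, with a lower total of 7988538, lacked 38, and the others lacked 12 to 33. The part of the total count was not tested. Members lacking in a single other fish of their genotype were LOC108184008 in mutant replicate 2, znf1085 in wild-type replicate 1, LOC103910593 in wild-type replicate 5, and LOC110439424 and znf1113 in wild-type replicate 6. LOC101884367, for example, had 1 count in replicate 4 and 14 to 19 in the other mutants, and 9 to 25 in wild-type fish.

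Members differed along the arm. Between 72 and 74 Mb lay 25 members, of which 20 (80%) were graded, 21 passed the filter and 2 had a sample at 0. Their median mean count was 20.7, and they include LOC100149352, at 0 in all mutants, and the called LOC101882475. Between 74 and 79 Mb, 5 of 7 members were graded and 1 had a sample at 0, with a median mean count of 29.9. Between 40 and 50 Mb, 5 of 13 members were graded and 1 had a sample at 0. Between 50 and 60 Mb lay 8 members, none of them graded and 6 with a sample at 0, and between 60 and 72 Mb 16 members, 2 of them graded and 8 with a sample at 0. Between 27 and 40 Mb, 14 of 33 members were graded and 12 had a sample at 0. A graded class needs counts, so these differences move with the level of the genes, and the part of the level was not tested.

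By name, the 27 members called XlCGF57.1 or XlCGF57.1-like included 12 that were tested and none that was called. Of the 24 XlCGF8.2DB members, 15 were tested and 2 called, 1 in each direction. All 4 oocyte XlCOF6 members had a sample at 0, and the 1 of them that was tested, LOC100536660, was called. The 12 members with other gastrula names had 9 tested and none called, and the 35 with other descriptions had 20 tested and 1 called. Members of 1 name may share sequence, and reads of near-identical copies can be split or moved between them, so the values of single copies are uncertain to that extent. LOC110437726 and LOC571721 overlap on the same strand, and 25 members overlap the body of another member. Counting genes of any kind, 60 members overlap the body of another gene. Whether reads were counted by strand is not given, so reads of these members may not be separable from those of genes they overlap.

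Of the members tested 7.02% were called, against 4.55% of all genes tested. Median mean counts, over genes with the count minimum whether tested or not, were 11.1 for members and 17.3 for the other genes of the window. The filter kept 55.9% and 66.5% of them. These shares are a description without a test, and nothing is read from them. In the window 45 of 218 other tested genes (20.6%) were called, 32 of them higher in mutants, with a median log2 fold change of 0.23. Of the zinc finger genes elsewhere 10 of 500 (2.00%) were called, with a median of -0.06. The spread within genotypes, as the median biological coefficient of variation in edgeR, was 0.295 for members, 0.350 for the other genes of the window and 0.196 for zinc finger genes elsewhere.

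**Figure D5:**
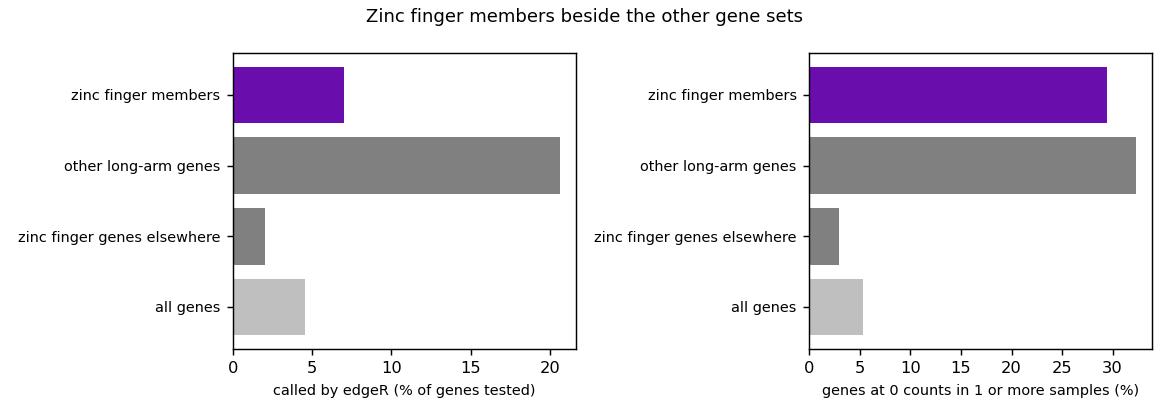
Bars give, for the members and for 3 other sets with the same count minimum, the percentage of tested genes called by edgeR (left) and the percentage of genes at 0 counts in at least 1 sample (right). Members were called in 7.02%, the other genes of the window in 20.6% and all genes in 4.55%. A sample at 0 was found in 29.4% of members, 32.3% of the other genes of the window and 2.97% of zinc finger genes elsewhere. The sets differ in their level of counts, so nothing is read from these shares.

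Many zinc finger repressors act through partner proteins that write or read repressive chromatin, and 41 such genes were listed. They include the histone H3K9 methyltransferases setdb1a and setdb1b, the HP1 proteins of the cbx family, the trim24 and trim33 cofactors, DNA methyltransferases and chromatin remodellers. Matching by symbol found 39 of them, 36 passed the filter, and none was called by edgeR, against 4.55% of all genes. Their median log2 fold change was -0.05, with 14 positive and 22 negative. trim24 itself lies on the long arm, among the members between 74 and 79 Mb.

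Without the fold minimum, 5 of the 36 partners (13.9%) had an adjusted p under 0.05 (edgeR), against 11.2% of all genes tested, a share near the background. They are named after their values were seen. The maintenance DNA methyltransferase dnmt1 was higher in mutants, with 183 to 251 counts (median 219) against 145 to 172 (median 153) in wild-type fish and a log2 fold change of 0.48. dnmt3ba, a de novo DNA methyltransferase, and daxx, a chaperone of histone H3.3, were higher with log2 fold changes of 0.57 and 0.61. The histone demethylase kdm1a and the histone-binding protein rbbp4 were lower with -0.25 and -0.39.

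Some markers of other cell types differed by genotype, while others of the same lists were not called. The summed ranges of the genotypes overlapped in each list, but a sum follows its most counted genes. Among leukocyte markers cd74a, not called, averaged 549 CPM in mutants and 404 CPM in wild-type fish. Among markers of proliferating cells pcna, not called, averaged 50.8 and 47.8 CPM. Of all genes tested, 3.68% were called higher in mutants and 0.874% lower. Of the 7 leukocyte markers tested 4 were called higher, and the list summed to 443 to 935 CPM in mutants and 317 to 693 CPM in wild-type fish. Of 6 markers of proliferating cells 3 were called higher, with sums of 76.6 to 176 CPM in mutants and 66.2 to 84.7 CPM in wild-type fish. The erythrocyte list summed to 429 to 682 CPM in mutants and 466 to 1900 CPM in wild-type fish, with 2 of 5 called lower, and 1 of 4 muscle and 1 of 9 photoreceptor markers tested were called lower. None of the 5 oligodendrocyte markers tested was called. In the germ cell list, which bears on the oocyte names, ddx4 was at 0 in all samples. The only gene of the list tested was gsdf, which is named for somatic cells of the gonad and does not itself mark germ cells. It had 533 to 739 counts in mutants and 515 to 719 in wild-type fish and was not called. Every other gene of the list had 12 counts or fewer in each sample, so the test of gsdf does not speak for germ cells. The part of these cell types in the values of the members was not tested.

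At the lower edge of the selection, LOC108183629 and LOC110439382 had 60 summed counts and were inside, and LOC108183334 with 59 and LOC103910897 with 58 were outside. LOC110439382, XlCGF49.1-like, had 0 to 12 counts in mutants and 4 to 8 in wild-type fish, and LOC108183334 had 1 to 12 in mutants and 2 to 14 in wild-type fish. At this level each fish gave a few reads per gene.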

How the data were processed

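Reads from eyes of 12 fish were aligned by the authors to GRCz11 with HISAT2 2.1.0, per the labels and methods. The authors deposited a count per gene, unnormalized, and TPM. The counting program and its use of strand are not given in the sources used here. Samples were grouped by their labels. The members, gene lists and tests were chosen with earlier results of these data known.

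The main test was the quasi-likelihood test of edgeR 4.0.16 (R 4.3.3) after its default filter and TMM scaling, with genotype alone in the model. Benjamini-Hochberg adjustment ran over all 18984 genes. On simulated counts for these genes, edgeR called 199 of 200 changed genes and 4 unchanged ones. The changed genes had higher counts than most members, whose median mean count was 11.1, and changes well above the fold minimum. Recovery of smaller changes, or of changes in genes at the level of most members, was not tested. Alternatives were DESeq2 1.42.0, limma 3.58.1, other scalings, filters and thresholds, a replicate block, and each sample left out. Replicate numbers did not pair the samples.

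Genes named were lrpap1, called members, the 6 with the highest mean TPM, members present in some samples and absent in others, those next to the minimum of 60 counts, and called partners (none was called). Neighbours of LOC101882475 were added for position, and further genes are stated as named after their values were seen. At total counts of 7988538 to 9829112 most members have few reads, so their counting error is large. No sequence is shown.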

Additional observations from a re-analysis of the deposited data

Results flagged for a closer look

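In 36 groups of 6 samples checked, 2 had 1 sample far from the other 5, by a gap above Dixon's 95% critical value, where chance gives 1 in 20, or 1.8 groups. LOC100151503 was at 17.7 CPM in mutant replicate 5 and at 12.1 to 14.2 CPM in the other mutants. LOC108184001 was at 5.02 CPM in wild-type replicate 1 and at 0.205 to 1.56 CPM in the other wild-type fish.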

How the results depend on the processing

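The members called numbered 4. They were 16 with DESeq2, 11 without the filter, 2 with the replicate block, and 1 each with at least 10 counts in every sample, an adjusted p under 0.01 or a minimum of 300 counts. Those higher numbered 6 with DESeq2 and 1 under each of the last 3 settings, and those lower 10 with DESeq2, 8 without the filter, and 0 under the block and the last 3. The other genes of the window went to 86 (DESeq2), 71 (no filter), 29 (block), 22 (p under 0.01) and 4 (10 counts), from 45, and zinc finger genes elsewhere to 34 without the fold minimum, 6 (block), 5 (p under 0.01) and 4 (10 counts), from 10. Partners passing were 5 without the fold minimum. Members both present and absent numbered 3 with absence at 1 count or fewer, 1 with presence at 20 and high at 60, 2 with a minimum of 120 counts and 1 with 300. Leaving out single samples gave 4 to 7 members called (7 without mutant replicates 4 or 5), 2 to 4 higher (4 without wild-type replicate 4), 1 to 5 lower, 36 to 52 other genes of the window, 6 to 11 zinc finger genes elsewhere and 3 to 5 members both present and absent. LOC103910472 ranged from -0.12 to 0.032. Its sign turned without mutant replicates 1 or 3 (0.0085 and 0.032). The causes were not tested. The same replicate numbers did not pair fish, with correlations of -0.302 to 0.109, and no mutant correlated best with its own number; under the block LOC101882475 (adjusted p = 0.0807, edgeR) and LOC103910886 (adjusted p = 0.0584, edgeR) were no longer called. The 3 silent members were picked for 0 counts in all mutants, so leaving out 1 sample could not remove them and is no check of them. With a minimum of 120 or 300 counts 0 such members were left, alternatives chosen after seeing the data.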
